A study of Mus musculus with 34 samples.

Results

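Divergent promoters are stretches of DNA from which 2 protein-coding genes are read away from each other, 1 on each strand. Their H3K4me3 was described here in villus cells scraped from the small intestine of C57BL/6J mice at 5 weeks of age, either wild type (WT) or ApcMin/+, in which 1 copy of the Apc tumour suppressor is truncated in every cell. H3K4me3 CUT&RUN, in which an antibody guides a nuclease to cut out marked nucleosomes, gave 4 libraries, 2 WT and 2 ApcMin/+. The same anti-H3K4me3 antibody was used in all 4, the cells came from a scraped villus fraction rather than a sorted population, and no source used here ties a library to a mouse. The study's methods name a pair of mice for each genotype and give an age a week above that of the labels. If libraries of a genotype came from the same mouse, the spread between them is technical. Pairs were taken from the GENCODE M21 annotation of the mm10 genome wherever the 5' ends of 2 protein-coding genes on opposite strands lay within 1000 bp and pointed away from each other. The rule found 755 pairs, which hold 1489 of the 21938 protein-coding genes (6.79%), and 42 of the pairs shared a gene with another pair. A further 456 pairs within 1000 bp had 5' ends that overlapped, and these were left out of the pairs and of this share. The comparison set was the 13984 protein-coding 5' ends with no other gene's 5' end within 5000 bp, called isolated below.

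Trimethylation of histone H3 at lysine 4 is laid down at active promoters, chiefly on the first nucleosomes inside the transcribed gene. At a promoter with 1 gene the mark is therefore usually lopsided, with more of it downstream than upstream, whereas a divergent promoter has a gene body on each side of a shared nucleosome-poor stretch. Such promoters are known for housekeeping genes, with DNA repair, mitochondrial and histone genes among the textbook cases, and they tend to lie in CpG islands.

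The 5' ends of a pair were a median of 129 bp apart (quartiles 66.5 and 240 bp, range 0 to 987 bp), and 619 of the 755 pairs (82.0%) were at most 300 bp apart. In the 500 bp around the midpoint, 631 pairs (83.6%) were CpG-rich, meaning an observed to expected CpG ratio of at least 0.6 and a GC content of at least 50%, against 40.3% of isolated 5' ends. The median CpG ratio was 0.833 in pairs and 0.454 at isolated ends, and the median GC content was 62.4% and 55.2%.

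The whole stretch between both 5' ends was read from the GRCm38 (mm10) genome for 5 textbook pairs whose ends lie 30 to 300 bp apart, because the H3K4me3 profiles described below are laid out around these stretches. Each is shown on the plus strand, 5' to 3', from the base after the minus-strand gene's 5' end to the base before the plus-strand gene's 5' end, so that it is intergenic in the gene models used. Capitals mark exact matches, on either strand, to any of 6 promoter motifs, whose letters are given after the sequences.

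Brca1/Nbr1 (chr11:101551956-101552148): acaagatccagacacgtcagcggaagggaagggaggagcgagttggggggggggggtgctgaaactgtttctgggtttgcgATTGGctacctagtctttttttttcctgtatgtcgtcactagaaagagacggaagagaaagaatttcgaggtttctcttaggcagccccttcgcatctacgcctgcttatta

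Col4a4/Col4a3 (chr1:82586850-82586920): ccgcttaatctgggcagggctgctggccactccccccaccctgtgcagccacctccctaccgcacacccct

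Mrps12/Sars2 (chr7:28741821-28741991): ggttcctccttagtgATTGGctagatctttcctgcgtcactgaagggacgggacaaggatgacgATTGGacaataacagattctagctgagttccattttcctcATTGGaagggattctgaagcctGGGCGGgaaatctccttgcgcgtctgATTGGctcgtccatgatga

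Kars/Terf2ip (chr8:112011324-112011397): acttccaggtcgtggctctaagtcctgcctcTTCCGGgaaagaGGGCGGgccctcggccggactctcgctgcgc

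Wrap53/Trp53 (chr11:69580256-69580358): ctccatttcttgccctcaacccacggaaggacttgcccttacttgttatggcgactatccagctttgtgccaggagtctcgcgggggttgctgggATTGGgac

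None of the 5 stretches held a TATA box match. The Mrps12/Sars2 stretch (171 bases) held 4 CCAAT box matches and 1 GC box match, all of the CCAAT matches on the minus strand, and the Brca1/Nbr1 stretch (193 bases) and the Wrap53/Trp53 stretch (103 bases) held 1 CCAAT match each. Kars/Terf2ip held 1 ETS core and 1 GC box match in 74 bases, and the 71 bases between Col4a4 and Col4a3 held no match. Across 300 bp centred on the midpoint, the ETS core, searched as CCGGAA on both strands like each motif here, was found in 41.1% of pairs, against 14.6% of isolated 5' ends, 26.6% of CpG-rich isolated ends and 18.6% of all protein-coding 5' ends. A CCAAT box, searched as its own name spells it, was found in 44.8% of pairs, against 36.6% of isolated ends, 33.0% of CpG-rich isolated ends and 36.7% of all ends. The GC box, searched as GGGCGG, was found in 67.9% of pairs and 41.3% of isolated ends, but in 78.2% of CpG-rich isolated ends and 45.5% of all ends. The TATA box, searched as TATAAA, was found in 4.37% of pairs, 12.2% of isolated ends, 3.44% of CpG-rich isolated ends and 10.7% of all ends. The YY1 site, searched as AAGATGGC, was found in 8.48% of pairs, 2.80% of isolated ends, 5.11% of CpG-rich isolated ends and 3.52% of all ends, and the NRF1 core, searched as GCGCATGC, in 6.49%, 2.77%, 5.71% and 3.25% of the same sets. Among CpG-rich pairs alone, the ETS core was found in 45.6%, the CCAAT box in 45.3% and the GC box in 74.3%. The TATA box was found in 3.01% of them, the YY1 site in 9.83% and the NRF1 core in 7.45%. For the TATA box this was below the share of CpG-rich isolated ends, unlike the share of all pairs. All of these are matches of letters within a window, given as descriptions, and the letters of no motif contain those of another.

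The libraries held 1430000, 4790000, 3700000 and 5470000 tags (WT replicates 1 and 2, ApcMin/+ replicates 1 and 2), and the signal is per-base coverage that the authors brought to a common library total. The median pair window of 4000 bp held 19.9, 46.0, 153.9 and 72.0 fragments in that order. ApcMin/+ replicate 1 stood apart, with 0.231 of signal per base more than 5000 bp from any 5' end where the others had 0.321 to 0.343, and with a higher mean signal over all protein-coding 5' ends (4.48, against 1.23 to 1.73 in the others). The olfactory receptor genes, which had little mark, did not share this, at 0.173 in that library and 0.200 to 0.325 in the others. Of the low lists given below, the immune and secretory ones were highest in that library and the mesenchymal one was not. In the same window around their 5' ends, 24 enterocyte marker genes, which define the villus epithelium, had a mean signal of 5.13, 3.06, 14.4 and 3.73. The 15 immune cell markers had 0.839, 0.610, 1.11 and 0.767, and the 14 genes listed as mesenchymal markers 0.506, 0.672, 0.667 and 0.725. The 10 secretory cell markers had 1.04, 0.590, 1.60 and 0.829, and the 12 crypt and Wnt markers 1.78, 1.51, 7.55 and 2.65. The enterocyte list was the highest of the 5 lists in each library. In bulk cells, the share of cells that carry the mark at a promoter and its amount per cell cannot be told apart.

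Divergent promoters carried more H3K4me3 than isolated ones in each library. Over 4000 bp around the midpoint, the mean signal of the 755 pairs was 3.61 and 2.41 in the WT libraries and 10.9 and 3.30 in the ApcMin/+ libraries. The 13984 isolated 5' ends had 1.37, 1.01, 3.31 and 1.30, so that the pairs were 2.65, 2.40, 3.30 and 2.53 times as high within the same library. The mean of the 4 within-library log2 ratios was 1.43 ± 0.20 (SD, n = 4). The ratio was above 1 in 4 of 4 libraries, with an exact two-sided sign-flip permutation p = 0.13, the smallest p that 4 libraries allow. A mean signal of at least 1 was reached by 706 of the 755 pairs (93.5%) and by 42.2% of isolated ends, and 93.1% of pairs were above 2 times the background in every library, against 40.6% of isolated ends. The higher level was not particular to these pairs. The 456 pairs with overlapping 5' ends had 3.36, 2.31, 10.0 and 3.07, and 91.2% of them reached a mean of 1.

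Sequence composition moved with this difference. Among CpG-rich promoters only, the 631 pairs had means of 3.78, 2.55, 11.5 and 3.48, and the 5639 isolated ends had 2.21, 1.58, 6.03 and 2.13. Pairs were then 1.71, 1.62, 1.91 and 1.64 times as high, a mean log2 ratio of 0.78 ± 0.11 (SD, n = 4; exact permutation p = 0.13). The 124 pairs that were not CpG-rich had 2.78, 1.73, 7.72 and 2.36, against 0.796, 0.620, 1.47 and 0.745 at the 8345 isolated ends of that kind, a mean log2 ratio of 1.83 ± 0.39. A share of 77.2% of the CpG-rich isolated ends reached a mean signal of 1. Restricting both sets to those that reached a mean of 1 left a log2 ratio of 0.54. The part of CpG content in the ratio was not tested beyond this.

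Signal was measured inside each gene of a pair and compared with both sides of an isolated gene. In the 1000 bp inside the plus-strand genes of the pairs, mean signal was 5.58, 3.66, 17.0 and 4.88, and inside the minus-strand genes it was 5.40, 3.62, 17.0 and 4.97. CpG-rich isolated genes had 4.66, 3.08, 12.8 and 4.20 in the 1000 bp downstream of their 5' end and 2.27, 1.61, 5.93 and 2.22 in the 1000 bp upstream. The 631 CpG-rich pairs had 5.85, 3.90, 18.2 and 5.26 on average over both sides, which was 1.26, 1.27, 1.42 and 1.25 times the downstream level of a CpG-rich isolated gene and 2.58, 2.42, 3.06 and 2.37 times its upstream level. Both mean log2 ratios, 0.37 ± 0.09 and 1.38 ± 0.17 (SD, n = 4), had an exact permutation p = 0.13, the floor.

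**Figure D1:**
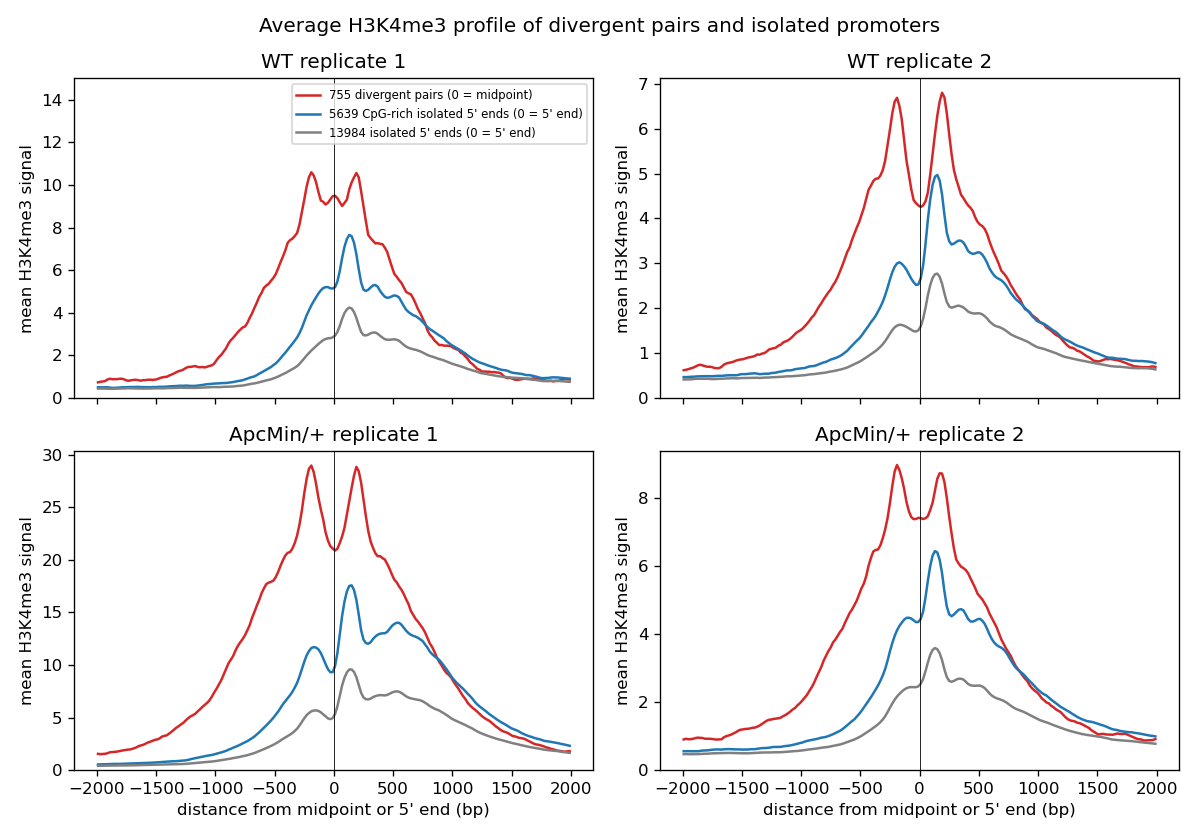
Mean H3K4me3 signal (coverage per base, vertical axis) in 20 bp bins against the distance in bp from the midpoint of 755 divergent pairs (red) or from the 5' end, transcription running to the right, of 13984 isolated (grey) and 5639 CpG-rich isolated (blue) protein-coding genes, with 1 panel for each library. The pairs have 2 maxima of near equal height 170 to 190 bp on either side of the midpoint, and the isolated ends 1 main maximum downstream. Pairs are laid out by strand, so that unevenness in either direction cancels in their average.

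The average profile of the pairs was nearly mirror-symmetric. The layout favours this, since minus-strand genes always lie to the left and plus-strand genes to the right. Pairs uneven toward either strand then cancel, so that this average profile does not show how even single pairs are. Its maxima lay in the bins centred 190 bp to the left of the midpoint in each library, and 190 bp to the right in 3 libraries and 170 bp in ApcMin/+ replicate 2. The left and right maxima were 10.6 and 10.6 in WT replicate 1, 6.69 and 6.80 in WT replicate 2, 29.0 and 28.9 in ApcMin/+ replicate 1, and 8.98 and 8.73 in ApcMin/+ replicate 2. Between them the signal dropped to 85.2%, 63.1%, 72.2% and 83.4% of the mean of both maxima, in the same order, a mean of 76.0% ± 10.3 (SD, n = 4). The genotypes overlapped in this dip, since WT replicate 2 had the deepest and WT replicate 1 the shallowest. The profile was above the level halfway between its maximum and its edges over 1020, 1100, 1300 and 1080 bp, against 760, 600, 1080 and 860 bp for isolated ends. For CpG-rich isolated ends this width was 800, 740, 1200 and 920 bp.

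Aligned on the genes' own 5' ends, members of pairs had their downstream maximum where isolated genes had it, in a bin between 120 and 160 bp inside the gene in each library. The levels there were 11.2, 7.32, 30.8 and 9.48 for genes of pairs and 4.24, 2.77, 9.57 and 3.59 for isolated genes. CpG-rich isolated genes lay between, at 7.65, 4.97, 17.6 and 6.44. The side behind the 5' end differed more. Its maximum, in a bin starting 200 to 220 bp upstream, was 92.7%, 85.2%, 91.2% and 91.2% of the downstream maximum for genes of pairs. The maximum upstream of isolated genes was 67.0%, 58.9%, 59.3% and 68.6% of the downstream one. It lay in a bin starting 20, 180, 160 and 20 bp upstream. In WT replicate 1 and ApcMin/+ replicate 2 it was thus the bin next to the 5' end rather than a separate upstream peak.

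Pairs grouped by the distance between their 5' ends differed in the shape of the profile more than in its level. Mean signal over 4000 bp in WT replicate 1 was 3.50 for the 313 pairs 0 to 100 bp apart, 3.76 for 206 pairs over 100 and up to 200 bp apart, 3.35 for 100 pairs 201 to 300 bp apart, 3.98 for 66 pairs 301 to 500 bp apart and 3.71 for 70 pairs 501 to 1000 bp apart. In ApcMin/+ replicate 1 the same classes had 10.8, 11.1, 10.3, 12.7 and 10.2, and in the other two libraries 2.19 to 2.63 and 2.98 to 3.53. The class farthest apart was CpG-rich in 34.3% of pairs, against 84.5% to 93.0% in the other classes.

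At the closest pairs the centre was a trough, and at pairs 201 to 500 bp apart it held a peak of its own. This was noticed in the plotted profiles and then measured as the mean signal within 40 bp of the midpoint over the mean of the lowest bins found on either side out to 240 bp. For pairs 0 to 100 bp apart the ratio was 0.972, 0.896, 0.871 and 0.960 in the 4 libraries, all under 1. For pairs over 100 and up to 200 bp apart it was 1.21, 1.05, 1.05 and 1.09. It reached 1.55, 1.37, 1.62 and 1.45 for pairs 201 to 300 bp apart, and 1.60, 1.61, 1.74 and 1.33 for pairs 301 to 500 bp apart. The ratio was thus above 1 in 4 of 4 libraries in both of these classes. Taking the lowest flanking bins favours a ratio above 1 where a profile is flat but noisy, so that this count is a description. Beyond 500 bp the ratio was 0.992, 1.03, 1.16 and 1.12. Fragments of 150 to 500 bp were kept by the authors.

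**Figure D2:**
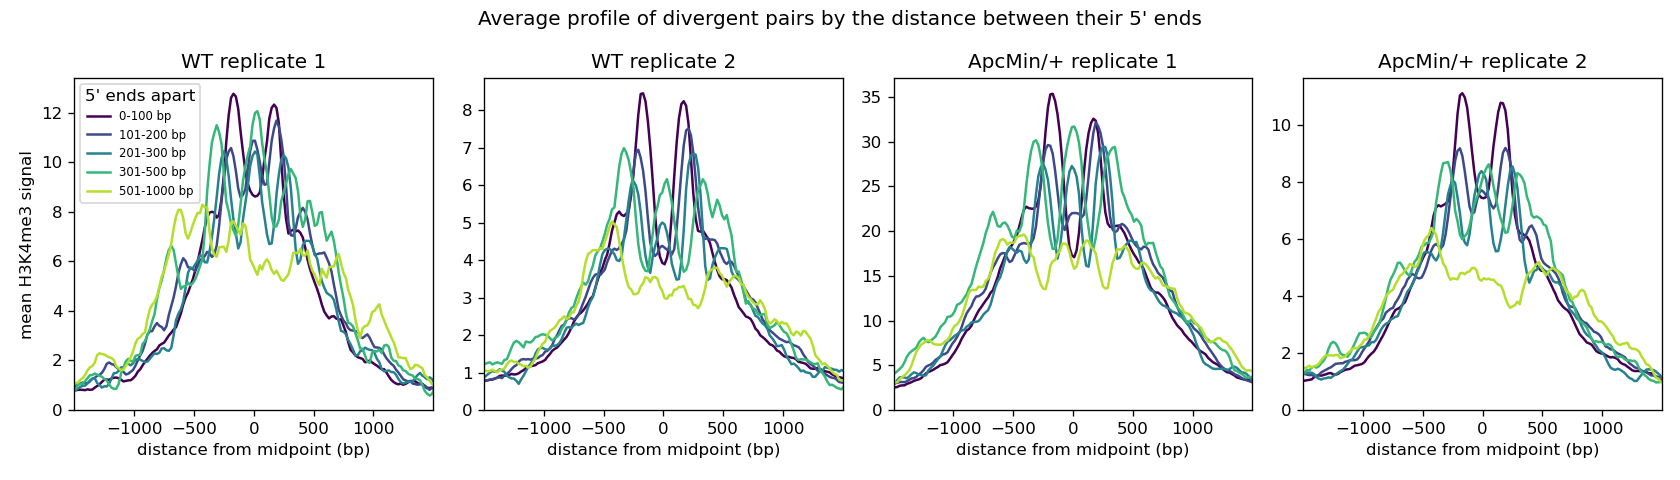
Mean H3K4me3 signal (coverage per base) against the distance from the midpoint in bp, for pairs grouped by the distance between their 5' ends (colours), with 1 panel for each library and its own vertical scale. The closest pairs (dark) have a trough at the midpoint with a ratio of 0.871 to 0.972 to the lowest flanking bins, and pairs 201 to 500 bp apart (green) a central peak with ratios of 1.33 to 1.74.

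Individual pairs were less even than their average. Each side was called by its mean signal over the 4 libraries, with 2 as the minimum. Both sides reached it in 602 of 755 pairs (79.7%), 1 side only in 90 pairs (11.9%; 40 on the plus strand and 50 on the minus strand) and neither in 63 pairs (8.34%). Among CpG-rich isolated genes both the downstream and the upstream 1000 bp reached 2 in 46.5%, 1 only in 28.5% and neither in 24.95%.

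The difference between sides was tested with limma as the log2(signal + 1) of the plus-strand side minus that of the minus-strand side over the 4 libraries, with genotype as a term. Of 686 pairs tested, 378 (55.1%) were called uneven at a Benjamini-Hochberg adjusted p under 0.05, 198 with the plus-strand side higher and 180 with the minus-strand side higher. The share over all promoters tested, in which isolated genes enter with downstream against upstream, was 68.1%. Of 5061 isolated genes tested, 3537 (69.9%) were called, 3312 of them with the downstream side higher. The median size of the log2 difference was 0.67 in pairs (quartiles 0.33 and 1.20) and 1.14 at isolated genes (0.59 and 1.75), or 1.03 at the CpG-rich isolated genes. The order of pairs and isolated genes depended on the filter, a mean signal of at least 2 over both sides. Without it, 113 of 755 pairs (15%) and 10.7% of 13984 isolated genes were called (10.9% of both sets together), with medians of 0.61 and 0.34. With the filter, a called difference of at least 2 on the log2 scale was found in 61 pairs (8.89%) and in 16.4% of isolated genes.

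By distance, the share of pairs called was 51.3% of 298 pairs 0 to 100 bp apart, 54.0% of 187 and 51.1% of 88 in the next classes, 65.6% of 61 pairs 301 to 500 bp apart and 39 of 52 pairs beyond. These shares were not compared by a test. Of the 378 pairs called, 354 (93.7%) had the same side higher in all 4 libraries. The fit gave promoters of one signal level a common spread, which makes its p-values far smaller than 4 values of 1 promoter could give alone. Of the 1489 genes, 1403 were matched by symbol to RefSeq (GRCm38.p6), and 1045 of these (74.5%) had their RefSeq 5' end within 100 bp of the GENCODE one. The lower side of a called pair met this in 72.6% of cases and the higher side in 74.1%. Among the 369 tested pairs with both ends within 100 bp, 189 (51.2%) were called, 26 of them by at least 2 on the log2 scale.

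**Figure D3:**
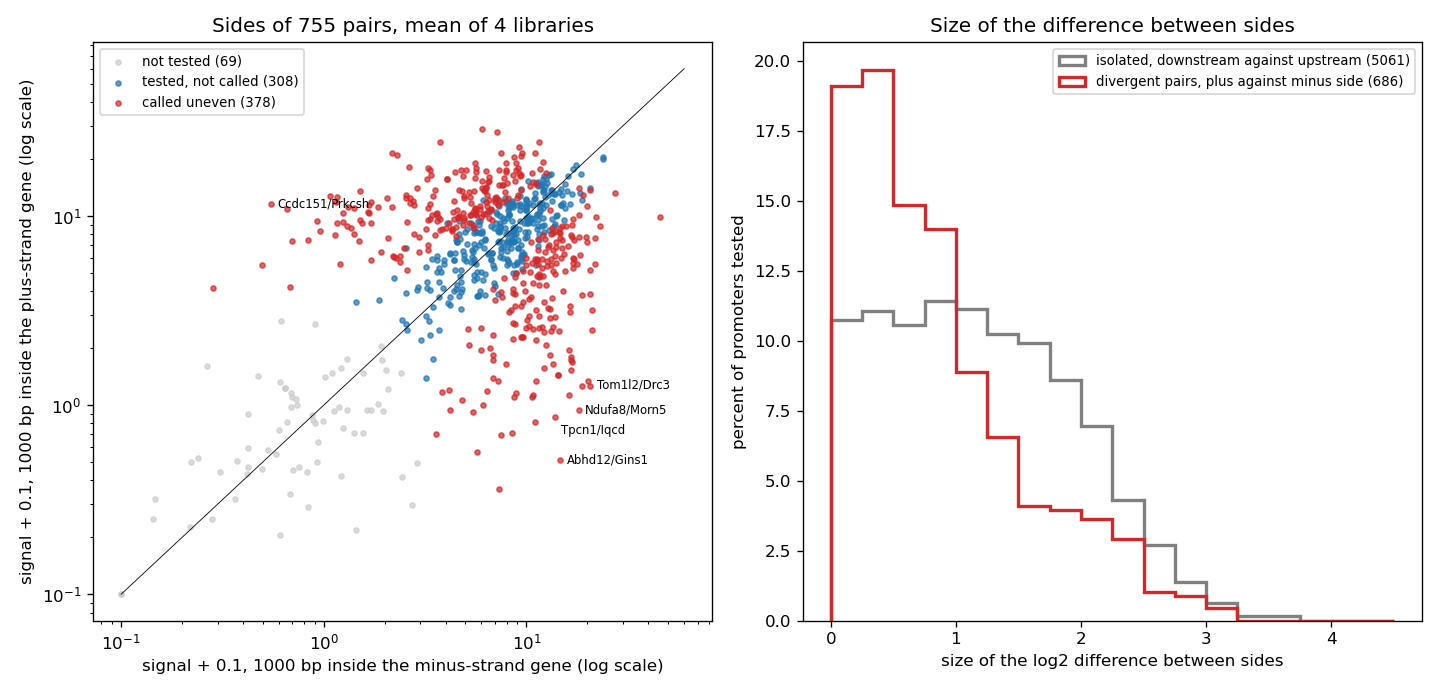
Left, mean signal over the 4 libraries plus 0.1 in the 1000 bp inside the plus-strand gene against that inside the minus-strand gene of 755 pairs, both on log axes, with the 5 most uneven pairs named and the line of equal sides drawn. Right, the distribution of the size of the log2 difference between sides in percent of the promoters tested, where the pairs (red, 686) lie lower, with a median of 0.67, than isolated genes (grey, 5061), with a median of 1.14. Without the filter on signal the order is the opposite, with medians of 0.61 and 0.34.

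Of the pairs called with the same side higher in every library, the 5 with the largest difference were Abhd12/Gins1, Ndufa8/Morn5, Tom1l2/Drc3, Ccdc151/Prkcsh and Tpcn1/Iqcd. Ndufa8, a subunit of respiratory complex I, had 9.59, 8.04, 42.5 and 11.8 on its side, and its neighbour Morn5, 52 bp away on chromosome 2, had 0.380, 0.856, 1.07 and 1.06. The Morn5 side was lower by 3.06 ± 0.34 (SE) on the log2 scale (limma adjusted p = 4.43e-17), and both 5' ends lay within 100 bp of RefSeq's. Prkcsh, the beta subunit of glucosidase II of the endoplasmic reticulum, had 10.9, 4.18, 21.7 and 8.81, and Ccdc151, which encodes a docking factor of the outer dynein arms of motile cilia, had 0, 0.767, 0.273 and 0.762, a log2 difference of 2.94 ± 0.38. Tom1l2, an endosomal sorting gene, had 17.5, 9.81, 44.9 and 9.69, and Drc3, which encodes a part of the dynein regulatory complex of cilia, had 0.697, 1.81, 0.921 and 1.24 (log2 difference of the plus minus the minus side -3.05 ± 0.32). In these 3 pairs each value of the higher side was above each value of the lower side. The RefSeq 5' ends of Ccdc151, Prkcsh and Drc3 lay 338, 182 and 448 bp from those of GENCODE. Without the filter on low signal, the calls at Ccdc151/Prkcsh, Tom1l2/Drc3 and Tpcn1/Iqcd were lost (limma adjusted p of 0.0528, 0.0526 and 0.0611), as was that at Brca1/Nbr1 (0.0696), while their differences kept the values given here.

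The other two pairs rest on a 5' end that RefSeq places elsewhere. Abhd12, a lysophospholipid lipase gene, had 14.6, 5.17, 31.9 and 6.75, and the Gins1 side, of a replication helicase subunit, had 0, 0.209, 1.21 and 0.229, a log2 difference of -3.22 ± 0.37. The RefSeq 5' end of Gins1 lay 4156 bp from the GENCODE one. Tpcn1, a lysosomal channel gene, had 13.1, 5.52, 28.4 and 7.61, and the side of Iqcd had 0, 0.444, 0.744 and 1.86 (-2.92 ± 0.36), with the RefSeq end of Iqcd 2245 bp away.

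The 3 pairs of highest mean signal were Hjurp/Trpm8, Sdhd/Timm8b and Klc4/Mrpl2. Hjurp/Trpm8, 28 bp apart on chromosome 1, had 13.4, 11.8, 29.6 and 14.6 over 4000 bp. Its signal sat on the side of Hjurp, the chaperone of the centromeric histone, with 36.1, 27.1, 81.8 and 36.6 against 6.15, 8.38, 17.8 and 6.65 on the side of Trpm8, a cold-sensing channel (-2.10 ± 0.15), and RefSeq starts Trpm8 29074 bp away. Sdhd/Timm8b, 2 mitochondrial genes 98 bp apart on chromosome 9, had 8.55, 6.10, 33.2 and 7.74, with the Sdhd side the higher (log2 difference of the plus minus the minus side -0.87 ± 0.18; limma adjusted p = 5.88e-06). Klc4/Mrpl2, a kinesin light chain and a mitochondrial ribosomal protein, had 10.97, 4.75, 31.8 and 6.06 and was not called uneven (-0.34 ± 0.20; adjusted p = 0.113).

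Of 22 textbook divergent pairs listed, 11 were members, 8 had 5' ends that overlapped in GENCODE and so did not point away from a common stretch (among them Surf1/Surf2, Hspd1/Hspe1, Ppat/Paics, Col4a1/Col4a2, Psmb9/Tap1, Tk1/Afmid and Sirt3/Psmd13), and 3 were not found by the rule (Col4a5/Col4a6, Abcg5/Abcg8 and Duox1/Duoxa1). Among those described here, H3K4me3 was strong on both sides, strong on 1 side, or low.

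Genome maintenance pairs were in the first 2 classes. Brca1, a homologous recombination factor, shares 194 bp with Nbr1, an autophagy receptor gene. The Brca1 side had 0.619, 1.70, 9.95 and 2.38 and the Nbr1 side 23.2, 6.20, 59.0 and 9.71, higher in 4 of 4 libraries by 2.36 ± 0.27 (SE) on the log2 scale (limma adjusted p = 6.09e-16). Atm, the kinase that signals double-strand breaks, had 5.82, 2.83, 17.3 and 6.00, and Npat, the activator of histone gene transcription 307 bp away, had 3.55, 5.27, 15.5 and 7.71, with each gene higher in 2 libraries (0.07 ± 0.28; adjusted p = 0.826). Wrap53, a telomerase and Cajal body factor, had 4.61, 5.65, 34.4 and 3.38, and Trp53, the p53 tumour suppressor 104 bp away, had 4.58, 7.55, 35.1 and 5.93 (0.26 ± 0.25; adjusted p = 0.344). Prkdc, the catalytic subunit of DNA-dependent protein kinase, had 7.04, 3.66, 14.4 and 5.98 against 1.73, 2.24, 9.27 and 4.28 for the replication helicase gene Mcm4 (0.77 ± 0.32; adjusted p = 0.0253). This call was lost in 5 of the 11 alternative settings, among them those without WT replicate 1 (adjusted p = 0.264), ApcMin/+ replicate 1 (0.103) or ApcMin/+ replicate 2 (0.056), and RefSeq starts Prkdc 422 bp from the GENCODE 5' end.

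At pairs that hold translation genes, neither side was called higher with all 4 libraries. Mrps12, of the small mitochondrial ribosomal subunit, had 7.18, 3.90, 22.9 and 4.76, and Sars2, the mitochondrial seryl-tRNA synthetase gene whose 5' end lies 172 bp away past the 4 CCAAT boxes shown above, had 8.30, 3.76, 14.1 and 3.86 (-0.19 ± 0.27; adjusted p = 0.544). Kars, the lysyl-tRNA synthetase gene, had 5.58, 3.95, 22.6 and 5.25, and Terf2ip, a telomere protein gene, had 4.66, 9.26, 22.4 and 8.32 (0.35 ± 0.25; adjusted p = 0.207). Without WT replicate 1 the Terf2ip side was called higher, by 0.67 (limma adjusted p = 0.0403).

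Pdcd10, a cerebral cavernous malformation gene, had 12.7, 5.48, 27.8 and 10.9, and Serpini1, which encodes the neuronal protease inhibitor neuroserpin 691 bp away, had 1.41, 1.15, 1.62 and 1.22 (-2.49 ± 0.33; adjusted p = 1.88e-12). Low in each library were Col4a4/Col4a3, chains of the collagen of the kidney glomerular basement membrane, with 0.349, 0.235, 0.0675 and 0.503 over 4000 bp, and the testis histone pair Hist1h2ba/Hist1h2aa, with 0.872, 0.366, 0.135 and 0.502. Against the signal far from 5' ends in the same library, which was 0.231 to 0.343, Hist1h2ba/Hist1h2aa was higher in all but ApcMin/+ replicate 1, while Col4a4/Col4a3 was higher in WT replicate 1 and ApcMin/+ replicate 2 and lower in the other two. These windows held only 2, 4.5, 1 and 11 fragments at Col4a4/Col4a3 and 5, 7, 2 and 11 at Hist1h2ba/Hist1h2aa. Their order against the background thus rests on few fragments. Neither pair was tested for its sides.

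**Figure D4:**
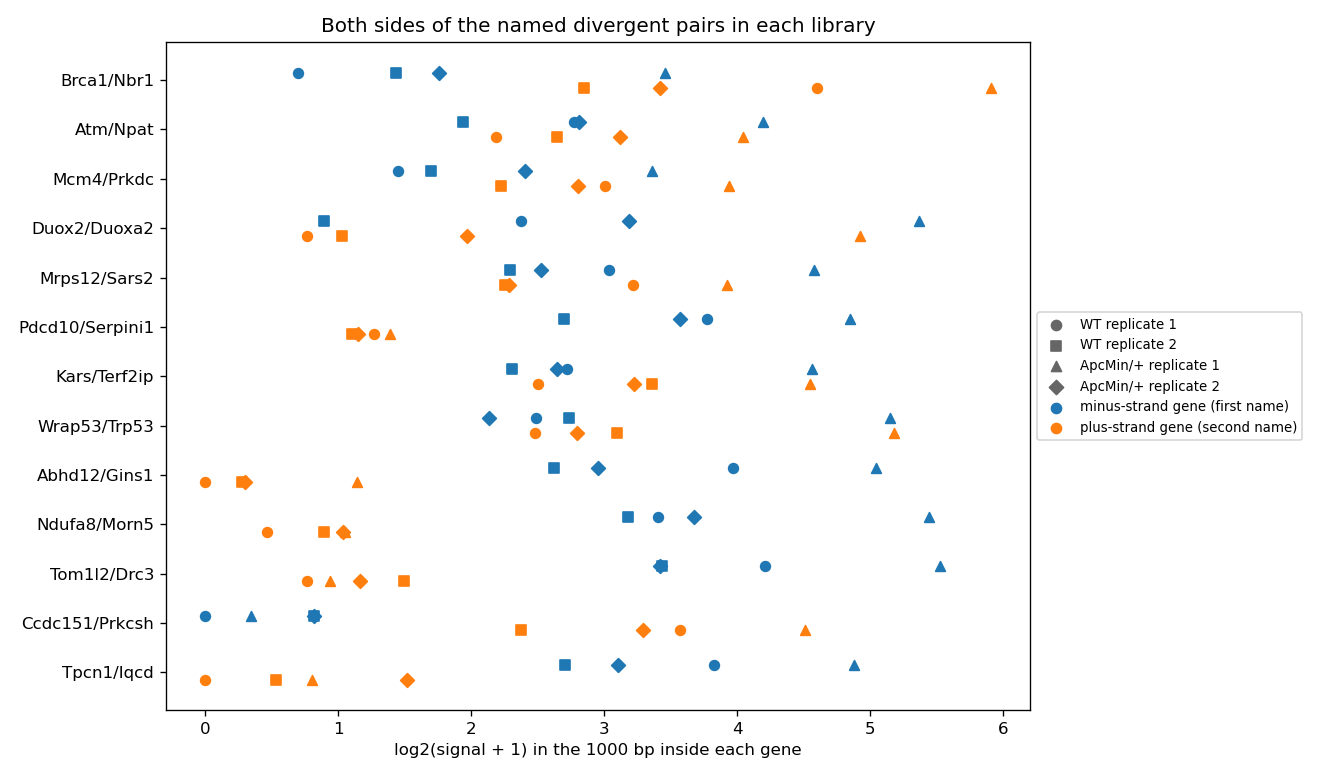
Log2(signal + 1) in the 1000 bp inside the minus-strand gene (blue, first name) and the plus-strand gene (orange, second name) of 8 textbook pairs tested and the 5 most uneven pairs, with 1 symbol for each library. Sides overlap in Atm/Npat, Mrps12/Sars2, Kars/Terf2ip and Wrap53/Trp53, and do not in Ndufa8/Morn5, Tom1l2/Drc3, Ccdc151/Prkcsh, Abhd12/Gins1, Tpcn1/Iqcd and Pdcd10/Serpini1. They also overlap across libraries in Brca1/Nbr1, Mcm4/Prkdc and Duox2/Duoxa2, which were called uneven by a test that compares sides within each library.

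Gene groups differed in how many of their members sit in divergent pairs, beside 6.79% of all protein-coding genes, and in which side carried the mark. For any gene of a tested pair, 27.6% would be called higher on its own side and as many on its partner's, since each call counts once for each gene. Of 67 clustered histone genes, 27 (40.3%) were in pairs, mostly an H2a gene facing an H2b gene. Of these 27, 3 were called higher on their own side, 2 on the partner's, 14 were not called and 8 were not tested. The calls came from Bola1/Hist2h2ab, Hist2h2ac/Hist2h2be and Hist1h2ae/Hist1h2bg. Hist1h2ap/Hist1h2br and Hist1h2bq/Hist1h2ao had means of 0.0189 and 0.0984 over the 4 libraries, below the signal far from 5' ends. Near-identical histone copies leave reads without a unique place, and the authors removed reads of mapping quality under 10, so that low values there are uncertain.

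Of 85 respiratory chain genes, 19 (22.4%) were in pairs, 10 called higher on their own side, 2 on the partner's (Atp5s and Ndufa1) and 7 not called. Their own side had a median of 12.8 and the partner's side 8.28. Examples are Uqcr10 of complex III, at 22.1 against 9.82 for Zmat5, Atp5h of the ATP synthase, at 20.6 against 5.05 for Kctd2, and Ndufa5 at 10.97 against 0.712 for Asb15. Of 78 mitochondrial ribosomal protein genes, 18 (23.1%) were in pairs, with 8 called higher on their own side, 5 on the partner's and 5 not called, and medians of 8.78 and 8.12. Of 80 cytosolic ribosomal protein genes, 8 (10.0%) were in pairs, 4 higher on their own side, 1 on the partner's, 2 not called and 1 not tested.

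DNA repair genes showed the other order. Of 86 listed, 25 (29.1%) were in pairs, 10 called higher on the partner's side, 5 on their own, 9 not called and 1 not tested, with a median of 5.51 on their own side and 8.75 on the partner's. Fancd2 of the Fanconi anaemia pathway had 1.74 against 12.9 for Emc3, Lig4 of end joining 1.54 against 10.4 for Abhd13, and the mismatch repair gene Pms2 5.51 against 13.8 for Aimp2. Called higher on their own side were Xrcc1, Wrn, Ercc8, Parp2 and Prkdc. The lists were not compared by a test.

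Of 39 proteasome genes, 6 (15.4%) were in pairs, and of 36 aminoacyl-tRNA synthetase genes 5 (13.9%). Of 394 Zfp zinc finger genes, 20 (5.08%) were in pairs, and of 44 collagen genes only Col4a3 and Col4a4 (4.55%). None of 1135 olfactory receptor genes was in a pair, nor was any enterocyte, crypt and Wnt, secretory or immune marker listed. Of the 14 genes listed here as mesenchymal markers 1 was, Pecam1 with Milr1.

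The pairs with little mark were a small group. A mean signal under 1 was found at 49 pairs, 14 of them CpG-rich (28.6%, against 83.6% of all pairs). Among them, named after their values were seen, were Kirrel2/Nphs1, the latter the nephrin gene of the kidney podocyte, at 0.562, Klc3/Ckm, the latter muscle creatine kinase, at 0.822, and Sgce/Peg10, a pair of imprinted genes, at 0.422. These are picked examples, and how far they stand for the rest of the 49 was not tested.

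The comparison of ApcMin/+ with WT mice asks whether the mark at promoters differs in mice that carry the tumour-prone allele. The pairs' average was 3.01 ± 0.85 in WT and 7.10 ± 5.38 in ApcMin/+ (SD, n = 2 each), a log2 ratio of group means of 1.24 that rests on ApcMin/+ replicate 1. Without that library it was 0.13. The ranges overlapped, since ApcMin/+ replicate 2, at 3.30, lay between both WT libraries. The isolated average had a log2 ratio of 0.96 in the same direction, and the within-library ratio of pairs to isolated ends was 2.65 and 2.40 in WT and 3.30 and 2.53 in ApcMin/+, again overlapping. The crypt and Wnt markers, at 1.78 and 1.51 in WT and 7.55 and 2.65 in ApcMin/+, were higher in both ApcMin/+ libraries than in either WT library, and the enterocyte markers, at 5.13 and 3.06 in WT and 14.4 and 3.73 in ApcMin/+, were higher in ApcMin/+ replicate 1. Their part in these values was not tested.

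Pair by pair, limma on log2(signal + 1) called none of 706 pairs tested at an adjusted p under 0.05, beside 0 of all 10625 promoter windows (0%). At an unadjusted p under 0.05 there were 8 pairs and 292 windows, and the smallest adjusted p of a pair was 0.676. The median log2 difference was 0.83 in pairs and 0.74 over all windows, and 704 of 706 pairs and 96.3% of all windows had a positive difference. Both ApcMin/+ libraries were above both WT libraries at 291 pairs (41.2%), beside 41.6% of all windows, and below them at 0 pairs, beside 0.527%. After subtracting each library's median window on the log2 scale, which removes that general shift, 129 pairs (18.3%) were above, beside 11.5% of all windows, and 45 pairs (6.37%) below, beside 15.6%. The median centred difference was then 0.06 in pairs and -0.03 over all windows, small beside the shift removed. Among windows with a mean signal of at least 3, the medians before centring lay closer, at 0.86 in pairs and 0.84 over all windows. Pairs have more signal than most windows, and the part of signal level in the centred counts was not tested.

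Centring called 1 pair, Duox2/Duoxa2, beside 20 of 10625 windows (0.188%), 8 of them higher in ApcMin/+. Duox2 makes hydrogen peroxide at the apical surface of epithelia and Duoxa2 is its maturation factor. Over 4000 bp around the stretch of 451 bp between them on chromosome 2, the signal was 1.57 and 0.881 in WT and 35.7 and 4.83 in ApcMin/+. The groups did not overlap, though the WT values rest on only 9 and 16.9 fragments. RefSeq places the 5' end of Duox2 291 bp from the GENCODE one. The log2 difference was 2.73 ± 1.09 (SE; limma adjusted p = 0.676) as deposited and 1.96 ± 0.29 (adjusted p = 3.67e-08) centred. The centred call was lost without WT replicate 1 (2.05; adjusted p = 0.220), WT replicate 2 (1.88; adjusted p = 0.170) or ApcMin/+ replicate 1 (1.25; adjusted p = 0.343). Each side was higher in both ApcMin/+ libraries than in either WT library. The Duox2 side had 4.18, 0.855, 40.1 and 8.10, and the Duoxa2 side 0.697, 1.05, 29.3 and 2.92. The Duox2 side was the higher in 3 of 4 libraries (-0.78 ± 0.32; adjusted p = 0.0247), and this call was lost in 5 of the 11 alternative settings, among them those without WT replicate 1 (-0.34; adjusted p = 0.476) or ApcMin/+ replicate 2 (-0.59; adjusted p = 0.179).

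Among pairs with non-overlapping groups and a mean of 3 or more, the next largest differences were at Vmp1/Ptrh2 and Trappc13/Trim23, all of them increases. Vmp1, an autophagy gene, and Ptrh2, 149 bp apart on chromosome 11, had 2.53, 2.79, 17.6 and 5.22 (1.56 ± 1.15; adjusted p = 0.676). Trappc13, a vesicle tethering gene, and Trim23, 328 bp apart on chromosome 13, had 3.65, 2.92, 21.4 and 5.48 (1.497 ± 1.20; adjusted p = 0.676). Neither passed the test with all 4 libraries, centred or not. As deposited, no tested pair had a non-overlapping decrease, while centring gave the 45 counted above. Without ApcMin/+ replicate 2, ApcMin/+ replicate 1, the library that stood apart, was the lone sample of its genotype, and it was assumed to vary like the WT libraries, which alone gave the spread. That fit called 540 pairs higher (76.5%), Duox2/Duoxa2 and both of these included, beside 73.3% of all windows. Centred, it called 22 pairs (3.12%), 5 higher and 17 lower, beside 9.36% of all windows, 112 higher and 882 lower.

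**Figure D5:**
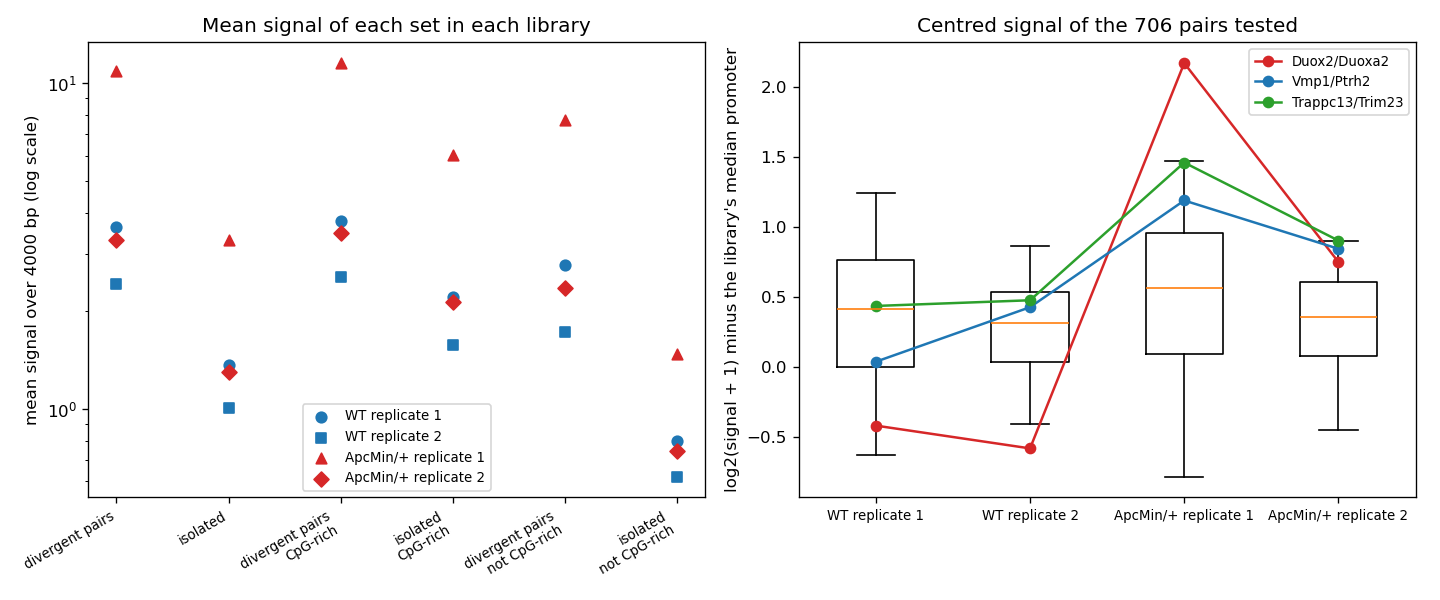
Left, mean signal over 4000 bp (log axis) of each set of promoters in each library, WT in blue and ApcMin/+ in red, in which ApcMin/+ replicate 1 is the highest in every set and ApcMin/+ replicate 2 lies between the WT libraries. Right, log2(signal + 1) minus the library's median promoter for the 706 pairs tested (boxes show quartiles, orange lines medians, whiskers the range from 5% to 95% of pairs) with 3 named pairs drawn over them, of which Duox2/Duoxa2 rises from below the box in WT to above it in ApcMin/+.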

How the data were processed

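H3K4me3 CUT&RUN signal was taken from 4 coverage tracks (2 WT and 2 ApcMin/+, 5 weeks). Per the labels and the study's methods, reads were aligned to mm10 with Bowtie2, duplicates were removed with Picard, reads of mapping quality under 10 were dropped, fragments of 150 to 500 bp were kept, and HOMER wrote the deposited signal, per-base coverage that the authors brought to a total of 10000000 tags, each as if 100 bp long. No control was subtracted and no replicates were pooled. The values are not counts, so no count test was run. Tag numbers came from the track headers (1430000, 4790000, 3700000 and 5470000), and values rest on the fragments given in the report.

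Pairs and isolated 5' ends were found on 21 chromosomes of GENCODE M21, taking each gene's outermost 5' end. Signal was averaged over 2000 bp on each side of a midpoint or 5' end, in 20 bp bins, and over the 1000 bp inside each gene. Fragments in a window were the summed signal divided by what 1 tag adds. Tests used limma 3.58.1 in R 4.3.3 (mean-dependent prior spread, Benjamini-Hochberg adjustment) on log2(signal + 1), for windows with a mean signal of at least 1 (genotype) or 2 (sides), and exact permutation tests over libraries. The fits had 2 residual degrees of freedom and an infinite prior one. Both were tested on data simulated at the depths of the 4 libraries. No simulated library stood apart as ApcMin/+ replicate 1 did, so that the genotype fit was not tested under that condition. The members, gene lists and tests were chosen with earlier results of these data known. Named pairs are the textbook pairs found, the 3 of highest mean signal, the 5 most uneven among those called with 1 sign, and up to 3 in each direction with the largest genotype difference among pairs that were called or, with none called, did not overlap at a mean signal of at least 3. Further pairs are named outside these rules, as examples of a gene list or of low signal. Alternatives changed windows, filters, pseudocounts, scaling, pair and isolation rules, the replicate block and each library in turn. Sequences were read from GRCm38.p6 with Python 3.11.15. The age follows the labels, while the study's methods give 6 weeks. Some named genes and pairs that the rules selected are not reported here.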

Additional observations from a re-analysis of the deposited data

How the results depend on the processing

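The divergent to isolated ratio stayed above 1 under each alternative tried, with mean log2 ratios of 0.54 (mean signal of at least 1 in both) to 2.51 (medians), and 1.34 to 1.49 with 1 library left out. The genotype difference of the average ranged from 0.13 to 1.86 with 1 library left out, and was 0.21 relative to the isolated average. The count of pairs called between genotypes was 0 as deposited, 1 with centring, 1 with quantile normalization, and from 0 to 540 with 1 library left out (0 to 22 centred). The replicate block called 0 pairs, and with centring 1. Same-numbered libraries are only 2 pairs, with a correlation of deviations of 0.175, so that the numbers were not taken to pair the samples. Uneven pairs numbered 378. Without a filter on low signal 113 were called. With 1 library left out 269 to 353 were called, and with the replicate block 398. Counting only pairs with both 5' ends within 100 bp of RefSeq, an alternative chosen after seeing the data, left 189, since fewer pairs could be counted. The dip ranged from 72.9% to 80.3% and the width from 1067 to 1160 bp with 1 library left out. The side difference of Atm/Npat turned to -0.063 with side windows of 500 bp and ranged from -0.25 to 0.40 with 1 library left out (below 0 without WT replicate 2 or ApcMin/+ replicate 2), and that of Wrap53/Trp53 to -0.0021 with side windows of 500 bp, none of them called, and the cause was not tested. Depth limits the low side of a pair most in WT replicate 1, where single fragments decide its value.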
